A study of Mus musculus with 2 samples.

Results

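The 10 genes described here store, release and take up fat in the postischemic mouse kidney: Plin2, Plin3, Hilpda, Dgat1, Dgat2, Pnpla2, Cd36, Lpl, Fabp3 and Fabp4. They were picked by symbol for their roles in lipid droplets and fatty acid uptake, with earlier results of these data known. All 10 were found among the 32285 genes of the count tables. Male C57BL/6 mice, 9 weeks old, underwent bilateral renal ischemia-reperfusion injury (IRI), and their kidneys were dissociated 24 h later for single-cell RNA sequencing. Just before reperfusion, 1 mouse was given saline (the control kidney) and 1 was given JPI-289, an inhibitor of poly (ADP-ribose) polymerase, at 100 mg/kg, both intraperitoneally. There was 1 library per condition and thus no replicate and no test, so the treatment cannot be told apart from differences between these mice or their libraries.

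Cells store surplus fatty acids as triglyceride in lipid droplets. Perilipins coat the droplet, the last enzymes of triglyceride synthesis fill it and lipases empty it. Fatty acids enter as free acids through carriers such as CD36, or are cut from lipoproteins by lipoprotein lipase, and small binding proteins carry them in the cytosol. Proximal tubules (PTs) burn fatty acids as their main fuel and are known to collect droplets when oxidation is impaired. Endothelial cells (ECs) of capillaries take up fatty acids and pass them to the tissue.

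The libraries held 38328760 (control) and 35548396 (JPI-289) unique molecular identifiers (UMIs), each marking 1 captured molecule. They gave 3748 and 5047 cells, whose median depth was 2059.5 and 1865 UMIs, and 23 of these barcodes occurred in both libraries. PT-like cells, with 10 of 10 PT markers detected, numbered 1800 and 1651, and EC-like cells, with 8 of 8 EC markers detected, 497 and 566. Detection in a class sum does not separate these classes, since all 8 EC markers were also detected in PT-like cells. PT markers summed to 8819 and 10001 UMIs per 1000000 in PT-like and 1040 and 787 in EC-like cells. EC markers summed to 46.9 and 15.6 in PT-like and 12476 and 9733 in EC-like cells. The other classes were thick ascending limb (TAL, 280 and 405), distal convoluted and connecting tubule (DCT-CNT, 216 and 256), principal cells (PC, 77 and 381), intercalated cells (IC, 44 and 62), stroma (158 and 100), macrophages (132 and 172), neutrophils (196 and 652) and red blood cells (76 and 123). Each of the 6 PT-like clusters drew at least 97.7% of its cells from 1 library. The libraries were clustered together without batch correction, so in this split cell state cannot be told apart from a library effect. Control cells lay in clusters 1 (1002), 4 (542) and 14 (229, with nuclear RNAs among its leading genes). Clusters 0, 9 and 12 had a higher score for injured PT than for PT markers, and held 1640 JPI-289 but 27 control cells. In cluster 12 these scores were close, 2.11 and 2.04. Levels below are UMIs of a gene per 1000000 UMIs of the class (CPM) with exact Poisson 95% intervals. Differences are log2 ratios of JPI-289 over control with exact binomial 95% intervals, and all intervals cover counting error only.

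The 3 members with the largest positive log2 ratios in PT-like cells were Plin2 (ENSMUSG00000028494, chromosome 4 from 86648386 to 86670060, minus strand), Hilpda (ENSMUSG00000043421, chromosome 6 from 29272488 to 29275446, plus strand) and Pnpla2 (ENSMUSG00000025509, chromosome 7 from 141455198 to 141460743, plus strand), in GENCODE vM21 coordinates of GRCm38. Their promoters are shown because these members differed in the same direction. Each sequence is from RefSeq on GRCm38.p6, with 250 bases before the annotated start and 10 after it, read 5′ to 3′ on the strand of the gene (minus for Plin2, plus for Hilpda and Pnpla2). Capitals mark ACGTG, a form of the core of the hypoxia response element, on either strand. Other forms of this core were not searched.
Plin2 promoter, chr4:86670050-86670309: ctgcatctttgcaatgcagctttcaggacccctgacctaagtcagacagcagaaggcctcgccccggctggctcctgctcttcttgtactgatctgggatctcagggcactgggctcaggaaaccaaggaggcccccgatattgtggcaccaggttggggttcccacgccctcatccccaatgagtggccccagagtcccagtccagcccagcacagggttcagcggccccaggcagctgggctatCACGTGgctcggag
Hilpda promoter, chr6:29272238-29272497: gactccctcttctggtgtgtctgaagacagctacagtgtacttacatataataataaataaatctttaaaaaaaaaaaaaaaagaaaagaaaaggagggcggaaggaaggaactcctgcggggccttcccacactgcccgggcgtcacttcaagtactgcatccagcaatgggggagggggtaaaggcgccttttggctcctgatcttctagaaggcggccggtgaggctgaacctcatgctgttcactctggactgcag
Pnpla2 promoter, chr7:141454938-141455197: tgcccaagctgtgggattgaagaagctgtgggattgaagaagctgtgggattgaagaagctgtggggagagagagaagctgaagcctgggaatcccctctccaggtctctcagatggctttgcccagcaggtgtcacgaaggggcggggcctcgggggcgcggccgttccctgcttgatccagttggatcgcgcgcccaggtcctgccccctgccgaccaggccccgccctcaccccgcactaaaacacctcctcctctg
Of the 10 members, 6 had an entry in the promoter table. The Plin2 window held 2 overlapping matches of ACGTG, 1 on each strand of the palindrome CACGTG, which spans the transcription start. The windows of Pnpla2 and of the first Hilpda start held none, and the window of another Hilpda start, 138 bases downstream, held 1 match. Among 32851 promoter windows of 300 bases, 19.6% held ACGTG. The forkhead letters GTAAACA, present in 3.65% of windows, and the direct repeat bound by PPAR receptors, present in 0.0396%, were not found in the windows of these 3 genes. Such matches describe letters, not binding.

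In PT-like cells Plin2, Hilpda and Pnpla2 were at least 2-fold higher under JPI-289, while Dgat2 and Fabp3 were at least 2-fold lower. These 3 and 2 of 10 members compare with 9.08% and 23.7% of the 11312 genes that had at least 20 UMIs. Since the members were chosen with earlier results known, this and later shares over all genes give scale only. The median log2 ratio was 0.37 over the members and -0.20 over all genes. Within clusters 0, 9 and 12 alone, where the control had 27 cells, the counts were also 3 and 2, but Lpl took the place of Hilpda and Fabp4 that of Dgat2, and the median was -0.07. No share or median over all genes was computed for these clusters alone, so these counts cannot be set against one. The 24 control cells of cluster 0 held 28 Plin2 UMIs, but 5 of Pnpla2, 4 of Fabp4, 2 of Hilpda, 1 of Fabp3, 1 of Dgat2 and 0 of Lpl. Apart from Plin2, ratios within these clusters thus rest on few control UMIs, and no interval is given for them. In EC-like cells 2 members (Plin2 and Pnpla2) were higher and 4 (Plin3, Cd36, Lpl and Fabp3) lower by the same measure, against 5.21% and 18.6% of 9722 genes. The medians there were -0.87 over the members and -0.18 over all genes. Plin2, Pnpla2, Cd36, Lpl and Fabp3 of EC-like cells are set beside levels scaled from PT RNA below. The part of PT RNA in these calls was not tested.

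**Figure D1:**
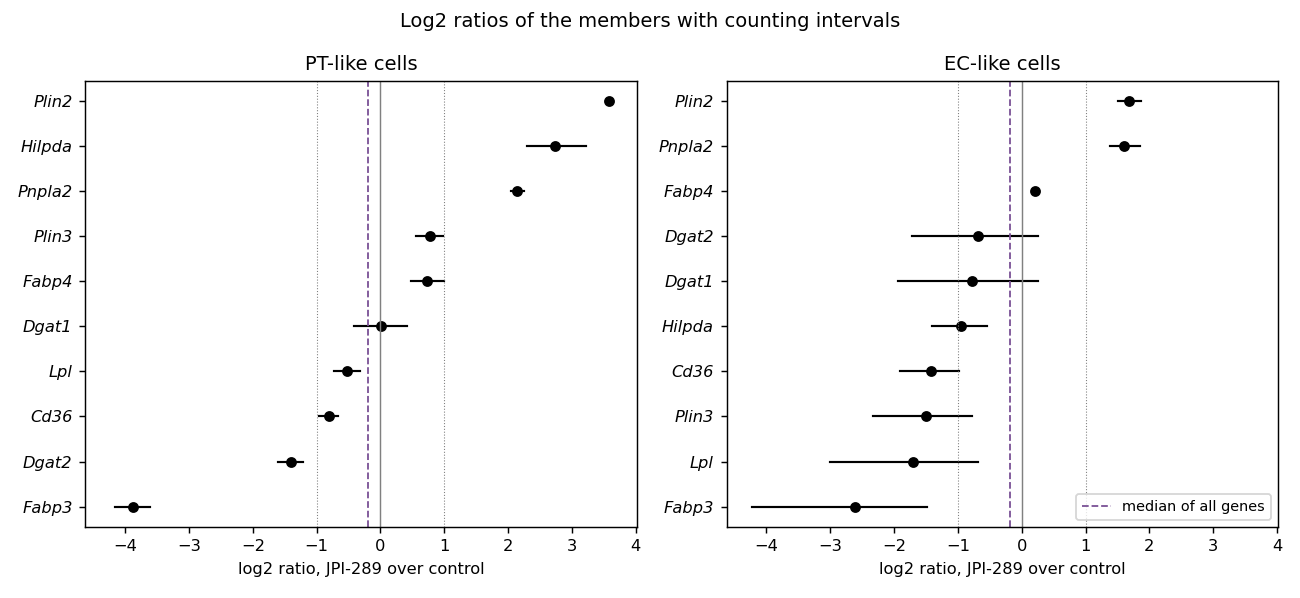
Log2 ratio of JPI-289 over control for the 10 members in PT-like (left) and EC-like cells (right). Points are ratios of summed UMIs, bars exact binomial 95% intervals, dotted lines 2-fold differences and the dashed line the median of all genes. Plin2 lies at 3.58 and Fabp3 at -3.87 in PT-like cells.

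Plin2 encodes perilipin 2, the main droplet coat protein outside fat tissue. PT-like cells held 552 CPM (536 to 568) in the control against 6593 CPM (6534 to 6652) under JPI-289, 11.9-fold more (log2 ratio 3.58, 3.53 to 3.62). To compare single cells at equal depth, each was reduced at random to 1000 UMIs, leaving 1341 and 1138 PT-like cells. Plin2 was then detected in 36.6% (34.0 to 39.3%) of the control cells but 96.8% (95.6 to 97.8%) of those given JPI-289, and at full depth in 60.5% and 97.6%. The median control cell had 0 Plin2 UMIs (90th percentile 2) and the median JPI-289 cell 6 (10th percentile 2). Most JPI-289 PT-like cells thus lay above most control cells, rather than a few cells carrying the difference.

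**Figure D2:**
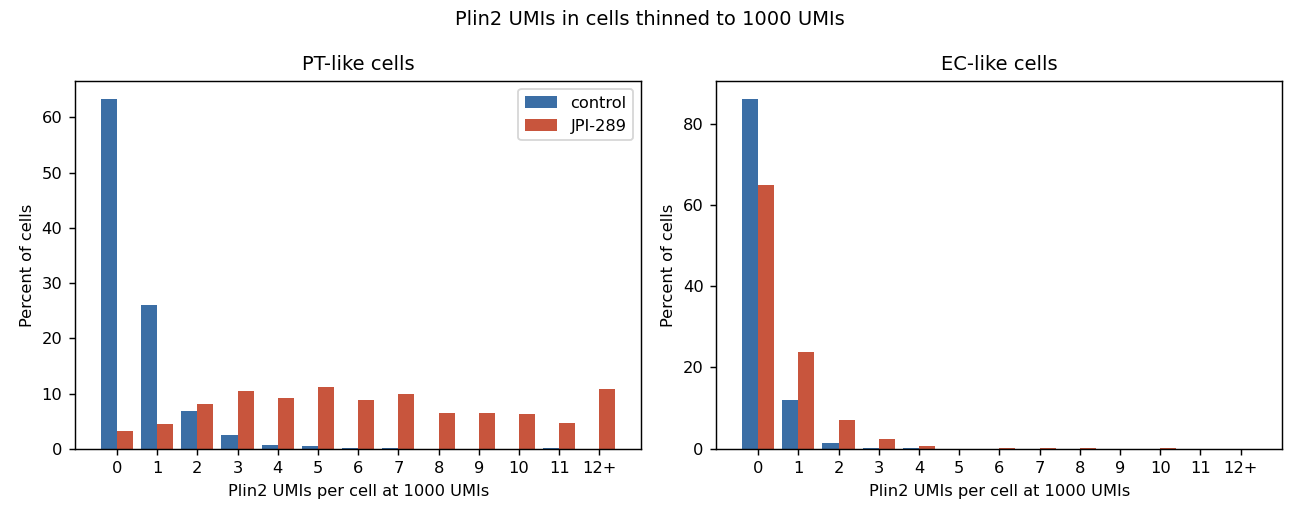
Share of cells (percent) by number of Plin2 UMIs after reduction to 1000 UMIs per cell, for PT-like (left) and EC-like cells (right) of both libraries. In PT-like cells 63.4% of control and 3.16% of JPI-289 cells held no Plin2 UMI.

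By cluster, Plin2 was 439 to 586 CPM in control clusters 1, 4 and 14 and 5558 to 7536 CPM in JPI-289 clusters 0, 9 and 12. The 24 control cells of cluster 0 had 983 CPM (653 to 1421), beside 6897 (6790.2 to 7005) in its 1004 JPI-289 cells. The sum of injury markers moved with the comparison. The 5 injured PT markers, all detected in both libraries, summed to 208 and 1327 CPM. Havcr1, which encodes kidney injury molecule 1, had a log2 ratio of 1.98 (1.87 to 2.08). It was 44.3 to 157 CPM in control clusters 1, 4 and 14 and 204 to 830 CPM in JPI-289 clusters 0, 9 and 12. Krt20, another of the 5, was 31.0 to 86.7 and 326 to 1295 CPM in the same clusters. Among cells reduced to 1000 UMIs and without a Havcr1 UMI, Plin2 was 527 CPM (487 to 569) in 1240 control and 6370.2 CPM (6201 to 6543) in 840 JPI-289 cells. With a Havcr1 UMI it was 673 CPM (523 to 854) in 101 control and 6883 CPM (6588 to 7187) in 298 JPI-289 cells. At this depth a cell without a Havcr1 UMI can still be injured, so the split does not set uninjured cells apart, and the part of injury in the Plin2 difference was not tested. Within clusters 0, 9 and 12 alone the Plin2 log2 ratio was 2.75.

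**Figure D3:**
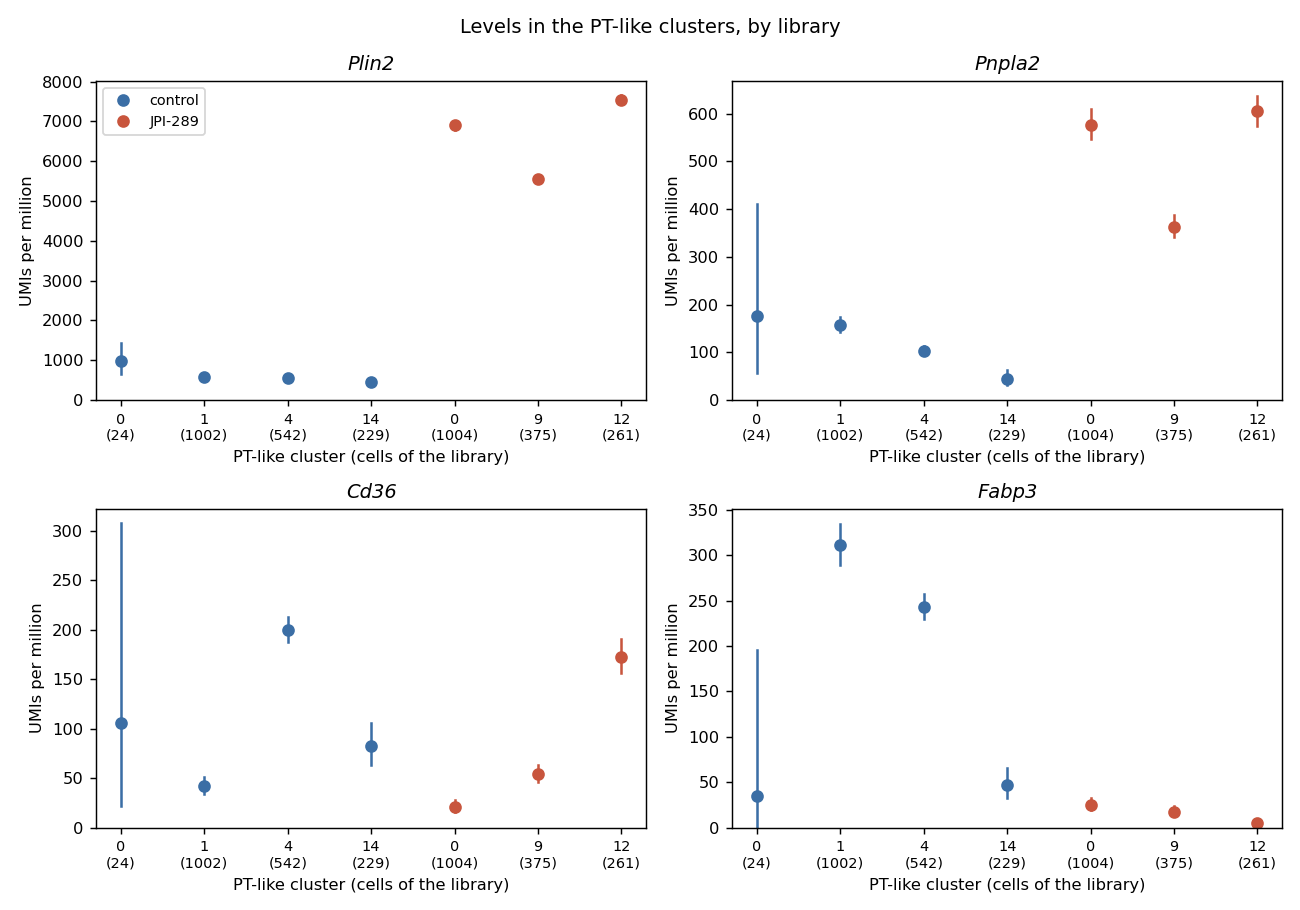
Levels of Plin2, Pnpla2, Cd36 and Fabp3 (UMIs per 1000000) in PT-like clusters with at least 20 cells of a library. Numbers in parentheses are cells and bars exact Poisson 95% intervals. Every JPI-289 cluster lies above every control cluster for Plin2, while Cd36 is highest in control cluster 4 and JPI-289 cluster 12.

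Plin2 was also higher under JPI-289 in most other classes, and free RNA moved with it. Barcodes with under 100 UMIs, which hold RNA from outside cells, had 345 CPM (292 to 404) of Plin2 in the control and 2743 CPM (2571 to 2924) under JPI-289. Red blood cells, which should lack Plin2, had 98.7 CPM (54.0 to 166) and 940 CPM (818 to 1075), and 10.7% and 32.3% of them had a UMI at 1000 UMIs (median depths 1519.5 and 1531 UMIs). The JPI-289 levels in TAL (465 CPM), DCT-CNT (368), PC (308), IC (441), stroma (495) and EC-like cells (579) were all below that. Control levels in the same order were 41.2, 42.2, 71.6, 54.3, 161 and 180.2 CPM. For scale, the PT-like Plin2 level was multiplied by each class's PT marker level relative to that of PT-like cells. In JPI-289 cells the measured level was 0.662 times this scaled level in DCT-CNT, 1.09 in TAL, 1.12 in EC-like cells, 1.22 in stroma, 1.29 in red blood cells, 1.31 in IC and 1.51 in PC. In control cells it was 0.860 times in DCT-CNT, 1.12 in TAL, 2.77 in EC-like cells, 5.25 in stroma, 1.12 in red blood cells, 1.76 in IC and 10.5 in PC. An estimate of free RNA from markers of other classes accounted for 8.51% of the JPI-289 red blood cell level, and after its removal the EC-like log2 ratio was 1.51. The estimate was the lowest value that any marker list of another class gave, so it can be too low. The part of PT RNA in these levels was not tested further.

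Macrophages, neutrophils and myeloid cluster 15 had more Plin2 than PT-like cells in the control. Macrophages had 850.2 CPM (775 to 931) in the control, 18.9 times the level scaled from PT RNA, and 607 CPM (543 to 677) under JPI-289, 1.63 times. They were the 1 class of 10 with less Plin2 under JPI-289 (log2 ratio -0.49, -0.69 to -0.28). The macrophage class was made up differently in the libraries. Its macrophage markers summed to 11122 and 4939 CPM, red blood cell markers to 80.3 and 3581 CPM and neutrophil markers to 67.5 and 388 CPM. The part of make-up in its Plin2 difference was not tested. Neutrophils had 807 CPM (725 to 896) and 1379.8 CPM (1323 to 1438), log2 ratio 0.77 (0.61 to 0.94), 11.3 and 2.69 times the scaled level. Cluster 15, led by Lyz2, Chil3 and Ccl6 and given no class name, had 1096 CPM and 1179 CPM (log2 ratio 0.11, -0.03 to 0.25).

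**Figure D4:**
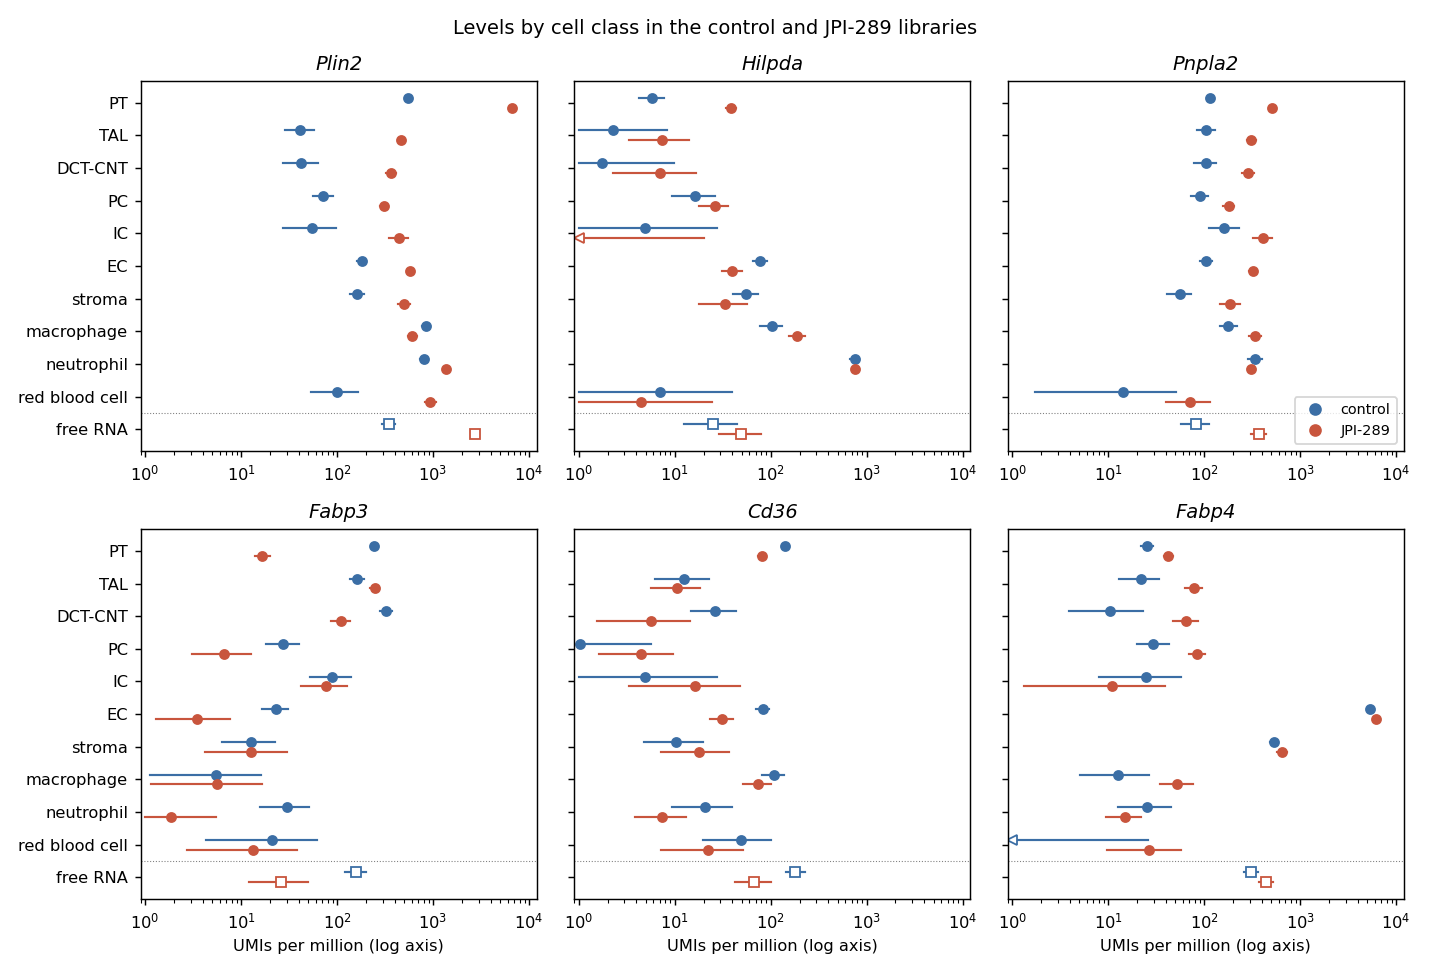
Levels of Plin2, Hilpda, Pnpla2, Fabp3, Cd36 and Fabp4 (UMIs per 1000000, log axis) in 10 cell classes and in free RNA (open squares) of both libraries. Bars are exact Poisson 95% intervals and open triangles mark 0 UMIs, drawn at 1. Plin2 in red blood cells (98.7 and 940) is printed for scale, since these cells should lack it.

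Plin3 (ENSMUSG00000024197, chromosome 17 from 56277476 to 56292873, minus strand) encodes perilipin 3, a coat protein of the cytosol and of young droplets. In PT-like cells it was 37.4 CPM (33.3 to 41.9) against 63.9 CPM (58.2 to 69.9) under JPI-289 (log2 ratio 0.77, 0.56 to 0.98). Of 7 classes with at least 20 UMIs, PT-like was the 1 with more Plin3 under JPI-289. The log2 ratio was -1.50 (-2.33 to -0.79) in EC-like cells, on 66 and 20 UMIs, -1.50 (-2.28 to -0.79) in PC, where median depth was 9689 and 1538 UMIs per cell, and -1.52 (-3.63 to -0.15) in stroma, on 28 and 4 UMIs. With each EC-like cell weighted equally the EC-like value was -0.45, short of 2-fold, and within clusters 0, 9 and 12 the PT-like value was 0.01.

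Hilpda encodes a small droplet protein that is induced by hypoxia and inhibits the Pnpla2 lipase. PT-like cells had little of it in the control, 47 UMIs or 5.78 CPM (4.25 to 7.69), and 285 UMIs or 38.9 CPM (34.5 to 43.7) under JPI-289 (log2 ratio 2.74, 2.30 to 3.23). A UMI was found in 0.447% and 4.31% of PT-like cells at 1000 UMIs. The PT difference reversed, to -0.71, when only clusters 0, 9 and 12 were compared, where the 27 control cells held 2 Hilpda UMIs. Among the classes compared, Hilpda was highest in neutrophils, with 752 CPM (672 to 838) and 757 CPM (715 to 800.4), log2 ratio 0.01 (-0.17 to 0.19), which held 53.4% of all Hilpda UMIs in JPI-289 cells. Cluster 15 followed with 473 and 591 CPM. Macrophages had 102 CPM (77.2 to 133) and 189 CPM (154 to 229.9), log2 ratio 0.88 (0.40 to 1.39). EC-like cells differed the other way, with 77.4 CPM (65.6 to 90.7) and 39.7 CPM (30.8 to 50.3), log2 ratio -0.96 (-1.40 to -0.54), while free RNA had 24.9 and 49.5 CPM.

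Dgat1 (ENSMUSG00000022555, chromosome 15 from 76502015 to 76511953, minus strand) and Dgat2 (ENSMUSG00000030747, chromosome 7 from 99153658 to 99182719, minus strand) encode the enzymes of the last step of triglyceride synthesis. Dgat1 in PT-like cells was 12.9 CPM (10.6 to 15.6) and 13 CPM (10.5 to 15.8), a log2 ratio of 0.01 whose interval ran from -0.41 to 0.42. Dgat2 was lower under JPI-289, 38.9 CPM (34.5 to 43.7) against 103 CPM (96.4 to 110.5), log2 ratio -1.41 (-1.61 to -1.21), and free RNA had 116 and 32.0 CPM. Within clusters 0, 9 and 12 the Dgat2 ratio was -0.71, short of 2-fold. Both genes were highest in neutrophils among the classes compared. There Dgat1 was 156 CPM (121 to 198) and 209 CPM (188 to 233), log2 ratio 0.41 (0.04 to 0.82), and Dgat2 went the other way, with 195 CPM (156 to 242) and 125 CPM (109 to 144), log2 ratio -0.64 (-1.01 to -0.26). Macrophages had more Dgat1 under JPI-289 (log2 ratio 1.21, 0.26 to 2.31), on 13 and 30 UMIs. EC-like cells had 24 and 12 UMIs of Dgat1 and 28 and 15 of Dgat2, too few to tell a difference from counting error.

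Pnpla2 encodes adipose triglyceride lipase, which takes the first step of emptying a droplet. PT-like cells had 114 CPM (107 to 122) in the control and 506 CPM (490.1 to 523) under JPI-289 (log2 ratio 2.15, 2.04 to 2.25), and 12.4% and 40.6% of them had a UMI at 1000 UMIs. Within clusters 0, 9 and 12 the ratio was 1.07. In other classes Pnpla2 was also higher, and there it exceeded the level scaled from PT RNA. EC-like cells had 104 CPM (90.6 to 119.7) and 319 CPM (293 to 347), log2 ratio 1.61 (1.38 to 1.85), 7.74 and 8.01 times the scaled levels. TAL had 105 CPM (85.0 to 129) and 309.8 CPM (279 to 343), log2 ratio 1.55 (1.22 to 1.90), 13.8 and 9.44 times. Of 9 classes with at least 20 UMIs, 8 had more Pnpla2 under JPI-289, all with intervals above 0. Neutrophils were the exception, with 338 CPM (286 to 397) and 310 CPM (283 to 338), log2 ratio -0.13 (-0.39 to 0.15). Free RNA had 81.6 and 369 CPM and red blood cells 14.1 CPM (1.71 to 50.9) and 70.6 CPM (40.4 to 115).

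Cd36 (ENSMUSG00000002944, chromosome 5 from 17781690 to 17888801, minus strand) encodes a membrane carrier of long-chain fatty acids. In PT-like cells it was 141 CPM (133 to 149.7) against 80.4 CPM (74.0 to 87.1) under JPI-289 (log2 ratio -0.81, -0.96 to -0.67), and free RNA had 181 and 66.9 CPM. Within clusters 0, 9 and 12 the ratio was -0.15. The spread among clusters of 1 library was wider than this. Control cluster 4 had 199.7 CPM (187 to 213) and control cluster 1 had 42.2 (34.4 to 51.2), while JPI-289 cluster 12 had 172 (156 to 190.4) and JPI-289 cluster 0 had 20.8 (15.3 to 27.5). Cluster 12 also had the most Slc7a13, a transporter of the last PT segment, at 62.8 CPM (52.9 to 73.9). EC-like cells had 83.5 CPM (71.2 to 97.3) and 30.9 CPM (23.2 to 40.4), log2 ratio -1.42 (-1.91 to -0.98). Cd36 was lower under JPI-289 in all 5 classes with at least 20 UMIs, and the interval lay below 0 in 3 of them. Neutrophils, 1 of these 3, had 9 and 12 Cd36 UMIs, 1.13 and 1.19 times the levels scaled from PT RNA. The same values were 1.33 and 2.05 in TAL, 5.01 and 4.89 in EC-like cells and 9.32 and 16.1 in macrophages. The part of PT RNA in these differences was not tested.

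Lpl (ENSMUSG00000015568, chromosome 8 from 68880491 to 68907448, plus strand) encodes lipoprotein lipase, which frees fatty acids from lipoproteins in the blood. PT-like cells had 60.6 CPM (55.3 to 66.1) and 42.2 CPM (37.6 to 47.1), log2 ratio -0.52 (-0.73 to -0.31), but the ratio was 1.73 within clusters 0, 9 and 12 with their 27 control cells. The 24 control cells of cluster 0 held 0 Lpl UMIs. As for Cd36, clusters 4 (87.2 CPM, control) and 12 (102 CPM, JPI-289) were highest, with 11.7 to 23.6 CPM in JPI-289 clusters 0 and 9 and control clusters 1 and 14. The 35 and 9 UMIs of EC-like cells gave a log2 ratio of -1.71 (-3.01 to -0.68). Cluster 17 held 19 control Lpl UMIs and cluster 7 held 16 control and 4 JPI-289 UMIs. Cluster 8 went the other way, with 0 control and 5 JPI-289 UMIs. The EC-like levels were 2.50 and 1.58 times those scaled from PT RNA, and the part of PT RNA was not tested. In macrophages Lpl was 56.6 CPM (38.4 to 80.3) and 13.1 CPM (5.27 to 27.0), log2 ratio -2.03 (-3.54 to -0.90). None of 6 classes with at least 20 UMIs had more Lpl under JPI-289.

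Fabp3 (ENSMUSG00000028773, chromosome 4 from 130308595 to 130315463, plus strand) encodes the heart-type fatty acid-binding protein of the cytosol. PT-like cells had 244 CPM (234 to 255) in the control but 16.6 CPM (13.8 to 19.9) under JPI-289 (log2 ratio -3.87, -4.15 to -3.61), the lowest ratio among the members. At 1000 UMIs, 19.8% and 2.11% of PT-like cells had a UMI. Within clusters 0, 9 and 12 the ratio was -1.98. Control clusters 1, 4 and 14 had 312, 243 and 47.3 CPM, and the 3 JPI-289 clusters 5.27 to 25.1 CPM. EC-like cells had 22.9 and 3.50 CPM (log2 ratio -2.61, -4.23 to -1.48), on 45 and 6 UMIs. These were 0.795 and 2.67 times the levels scaled from PT RNA. The distal nephron was divided. DCT-CNT had less under JPI-289, 109 CPM (86.0 to 136) against 322 CPM (277 to 372), log2 ratio -1.56 (-1.97 to -1.17), whereas TAL had more, 247 CPM (219.6 to 276) against 160.4 CPM (135 to 189), log2 ratio 0.62 (0.33 to 0.92). Free RNA had 156 and 26.2 CPM, lower under JPI-289 as in PT-like, EC-like and DCT-CNT cells and unlike TAL. The part of free RNA in these differences was not tested.

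Fabp4 (ENSMUSG00000062515, chromosome 3 from 10204088 to 10208576, minus strand) encodes the fatty acid-binding protein of adipocytes and capillary endothelium. EC-like cells held 91.3% of its UMIs in JPI-289 cells, at 5336 CPM (5234 to 5439) in the control and 6188 CPM (6071 to 6307) under JPI-289 (log2 ratio 0.21, 0.17 to 0.25). At 1000 UMIs it was detected in 84.5% and 92.2% of EC-like cells. Within cluster 7 the levels were 4087 (3854 to 4329.7) and 5001 CPM (4726 to 5287), and within cluster 8 4951 (4794 to 5113) and 6421 (6291 to 6552). Stroma had 533 CPM (486 to 584) and 646 CPM (569 to 731). EC markers summed to 856 and 772 CPM there, and the part of EC RNA in its Fabp4 was not tested. PT-like cells had 25.5 CPM (22.1 to 29.2) and 42.3 CPM (37.7 to 47.3), below the 311 and 442 CPM of free RNA, and the ratio turned to -1.45 within clusters 0, 9 and 12. Adipocytes can also carry Fabp4 and Cd36. Of 7 adipocyte markers, 5 and 4 were detected over all cells, summing to 227 and 75 UMIs, of which Car3 gave 193 and 27. The defining genes Adipoq and Cfd had 0 UMIs among all kept cells, which allows up to 0.180 CPM in the control and 0.168 CPM in the JPI-289 library. The list summed to 200 and 61 UMIs in PT-like cells and to 8 and 2 UMIs in EC-like cells, with 5 of them at 0.

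EC-like cells were made up differently in the libraries. Cluster 17 held 185 control and 2 JPI-289 cells, cluster 8 held 112 and 316, and cluster 7 held 200 and 248. Cluster 17 had 368 CPM (330.3 to 409) of Ehd3, a gene of glomerular endothelium, against 55.7 (40.1 to 75.3) and 153 (110.5 to 206) in control clusters 8 and 7. However, its leading genes were Plvap, Ly6c1 and Plpp1, and it was not assigned to a type of vessel. Cluster 8 had the lowest PT marker level of the 3, 379 and 402 CPM. Cluster 7 had 4328 and 3069 CPM of PT markers, beside 8819 and 10001 CPM in PT-like cells. Plin2 in cluster 7 was 241 and 1339 CPM, 0.891 and 0.662 times the level scaled from PT RNA. In cluster 8 Plin2 was 220.2 CPM (188 to 256) in control and 451 (417 to 487) in JPI-289 cells, beside 23.7 and 265 scaled from PT RNA. That was 9.28 and 1.70 times the scaled level, and the part of PT RNA was not tested. Its Pnpla2 was 107 (85.3 to 134) and 329.9 CPM (301 to 361) and its Hilpda 111 (88.9 to 138) and 41.1 (31.4 to 53.0), in the direction of the class. In cluster 7 Hilpda was 28.4 (12.3 to 56.0) and 32.3 CPM (13.9 to 63.6), on 8 UMIs in each library. Cd36 of cluster 8 was 34.5 (22.5 to 50.5) and 25.4 CPM (17.9 to 35.0), with overlapping intervals, and that of cluster 7 was 153 (110.5 to 206) and 64.5 (36.9 to 105).

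In the remaining classes a member counted as higher or lower by the same 2-fold measure. Of 9 members in TAL, 3 were higher (Plin2, Pnpla2, Fabp4) and 0 lower, against 8.56% and 10.6% of all genes. Of 8 members in DCT-CNT, 3 were higher (Plin2, Pnpla2, Fabp4) and 2 lower (Lpl, Fabp3), against 7.98% and 9.73% of all genes. Of 8 members in PC, 3 were higher (Plin2, Pnpla2, Fabp4) and 2 lower (Plin3, Fabp3), against 8.82% and 13.9% of all genes. The Plin2 calls here carry the PT RNA values given above. Fabp4 was 21.8 and 77.9 CPM in TAL, 10.6 and 65.1 in DCT-CNT and 29.7 and 84.1 in PC. After removal of the free RNA estimate, which can be too low, the log2 ratios were 2.03, 2.70 and 1.38. For control PC the estimate was 0%, so nothing was removed there. JPI-289 Fabp4 UMIs were 95 in 31 of 405 TAL, 46 in 14 of 256 DCT-CNT and 113 in 51 of 381 PC cells. Control UMIs were 19 in 13 of 280 TAL, 6 in 6 of 216 DCT-CNT and 29 in 5 of 77 PC cells. Removal of free RNA does not remove doublets, and the part of doublets with EC in these Fabp4 levels was not tested. Of 3 members in IC, 2 were higher (Plin2, Pnpla2) and 0 lower, against 13.1% and 9.06% of all genes. Of 6 members in stroma, 2 were higher (Plin2, Pnpla2) and 1 lower (Plin3), against 11.5% and 14% of all genes. Of 8 members in macrophages, 2 were higher (Dgat1, Fabp4) and 1 lower (Lpl), against 10.9% and 17.2% of all genes. Fabp4 there was 12.8 and 52.5 CPM on 7 and 28 UMIs, below the 311 and 442 CPM of free RNA. The free RNA estimate, which can be too low, gave 0% and 36.5% of these levels. Of 7 members in neutrophils, 0 were higher and 1 lower (Cd36, on 9 and 12 UMIs), against 11.5% and 10.5% of all genes. Pnpla2 fell short of 2-fold in macrophages (log2 ratio 0.91, 0.55 to 1.29) but not in cluster 15 (1.61, 1.21 to 2.05).

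The wider pathway was read through 93 genes in 8 lists. In PT-like cells 80 had at least 20 UMIs, of which 6 were at least 2-fold higher and 28 at least 2-fold lower, with a median log2 ratio of -0.50. The shares over all genes, 9.08% higher and 23.7% lower, apply to these counts and to those of each list below. Of 11 other droplet coat and assembly genes, 0 were higher and 2 lower (median -0.32). Triglyceride breakdown gave 1 and 2 of 7, and triglyceride and sterol ester synthesis 1 and 3 of 13. Fatty acid uptake and activation gave 1 higher and 5 lower of 10, and lipoprotein lipase partners and lipoprotein receptors 0 and 5 of 10. Fatty acid synthesis gave 1 and 1 of 5, hypoxia-induced genes 1 and 7 of 12 (median -1.20), and PPAR target genes 1 and 3 of 12 (median -0.24). The highest median of the 8 lists was 0.13, that of triglyceride breakdown, beside -0.20 for all genes.

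Among the related genes with most UMIs in PT-like cells, Ndrg1, induced by hypoxia, had a log2 ratio of 0.34 (0.31 to 0.37), Acaa1b, a peroxisomal thiolase, of 0.69 (0.65 to 0.74), and Slc27a2, a fatty acid transporter, of -2.30 (-2.37 to -2.24). The highest ratios were those of Pdk4, which shifts fuel use from glucose to fat (152 and 1132 CPM, log2 ratio 2.90, 2.81 to 2.99), and Acly, which supplies acetyl-CoA for fat synthesis (1.47, 1.30 to 1.64). The lowest were those of G0s2, an inhibitor of the Pnpla2 lipase (233 and 17.3 CPM, log2 ratio -3.74, -4.02 to -3.49), and Fabp1, the liver-type binding protein (33.6 and 3.55 CPM, log2 ratio -3.22, -3.88 to -2.66). Abhd5, the coactivator of the same lipase and named after its values were seen, had 47.9 and 105 CPM (log2 ratio 1.14, 0.96 to 1.32). In JPI-289 PT-like cells the inhibitor G0s2 was thus lower and the coactivator Abhd5 higher, while the inhibitor Hilpda was also higher. Of 7 triglyceride breakdown genes tested, 1 was at least 2-fold higher and 2 were at least 2-fold lower. The Hilpda ratio reversed, to -0.71, within the clusters with the higher injured PT score, which held 27 control cells. For G0s2 and Abhd5 no ratio within those clusters is given, and the part of cluster make-up in their differences was not tested.

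In EC-like cells 68 of the 93 genes had at least 20 UMIs, with 6 higher, 18 lower and a median of -0.31. Over all genes, 5.21% were higher and 18.6% lower by the same measure. List medians ran from -1.05 in fatty acid uptake and activation to 0.26 in fatty acid synthesis, and of 10 hypoxia-induced genes 2 were at least 2-fold higher and 0 lower. Gpihbp1, which holds lipoprotein lipase on capillaries, was 1039 and 714 CPM (log2 ratio -0.54, -0.65 to -0.44). Ucp2, a mitochondrial carrier, had a log2 ratio of 0.75 (0.62 to 0.88), and Ddit4, a stress-induced inhibitor of mTOR signalling, of 2.16 (2.0 to 2.33). Pdk4 again had the highest ratio, with 13.7 and 172 CPM (3.62, 3.08 to 4.27). Cyp4a14 and Cyp4a10, fatty acid hydroxylases typical of PTs, had the lowest, -2.61 (-4.08 to -1.55) and -2.11 (-3.09 to -1.31). They rest on 52 and 7 UMIs (Cyp4a14) and on 71 and 14 (Cyp4a10). PT-like cells had 152 and 1132 CPM of Pdk4, and EC-like cells had 11.8% and 7.87% of the PT marker level of PT-like cells. The part of PT RNA in these related genes was not tested.

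Likeness of pattern was taken as Pearson's r of log levels over 23 class and library units of at least 20 cells, among 9740 genes. The genes most like Plin2 were Fgb, Havcr1 and Fga (0.81, 0.80 and 0.78), of which Fgb and Fga encode fibrinogen chains. Those most like Fabp4 were Emcn, Cdh5 and Spry4 (0.97, 0.96 and 0.95), and the first 2 of these are EC markers. For the other droplet and lipase genes they were Acaa1a, Tsta3 and Cab39l (0.87, 0.87 and 0.85) for Plin3, Ccrl2, Ptpre and Lmnb1 (0.93, 0.93 and 0.93) for Hilpda, and Srsf5, Dnajc5 and Ube2d3 (0.90, 0.88 and 0.85) for Pnpla2. For the enzymes of synthesis they were Gpcpd1, Mboat7 and N4bp2l1 (0.89, 0.88 and 0.88) for Dgat1 and Map3k15, Mthfs and Zfand2b (0.82, 0.82 and 0.80) for Dgat2. For uptake and binding they were Gpx1, Slc7a7 and Maf (0.85, 0.78 and 0.76) for Cd36, Mtmr4, Metrn and Selenoo (0.87, 0.86 and 0.84) for Lpl, and Fxyd2, Ank3 and Hpn (0.88, 0.88 and 0.87) for Fabp3. Hilpda and Dgat1 (0.65) and Plin2 and Pnpla2 (0.63) were the most alike pairs of members. These units share libraries, depth and free RNA.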

How the data were processed

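Single-cell RNA was measured in 1 control and 1 JPI-289 kidney. The authors aligned reads to the mouse genome (mm10) with Cell Ranger 5.0.1, per the labels, and deposited raw UMI counts of all barcodes. Cells were called by total UMIs (1498 control and 2065 JPI-289 barcodes above 3338.3 and 2618.2 UMIs), then, from 500 UMIs, by difference from empty droplets (Benjamini-Hochberg threshold 0.01). Barcodes over 50% mitochondrial UMIs were left out (540 and 394). Scrublet marked 3 of 8795 cells and did not work, so doublets remain. Cells were clustered with scanpy 1.11.5 (2000 variable genes without members and related genes, 30 components, Leiden resolution 1) and named from markers, with mural cells and fibroblasts joined as stroma after the clusters were seen. Both libraries were clustered together without batch correction, whereas the study corrected for batch with Harmony. UMIs were summed by class and library, with 0.5 added for log2 ratios. Genes with at least 20 UMIs over both libraries were used, and 2-fold was the call.

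The members, lists and rules were chosen with earlier results of these data known. Named genes were all members, the related genes with most UMIs (3) and with the 2 highest and 2 lowest ratios (at least 100 UMIs in PT-like and 50 in EC-like cells), and the 3 genes most like each member over log2(CPM + 10). Steps were tested on simulated data. Alternatives covered cell calling, depth, mitochondrial limit, doublets, clustering, scaling, cell weight, pseudocount, gene minimum and free RNA.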

Additional observations from a re-analysis of the deposited data

Results flagged for a closer look

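Some members differed in opposite directions in a pair of classes, each with a counting interval that left out 0. Plin2 had a log2 ratio of 3.58 in PT-like cells and -0.49 in macrophages, and Plin3 0.77 in PT-like cells and -1.52 in stroma. Hilpda had 2.74 in PT-like and -0.96 in EC-like cells, and Fabp3 0.62 in TAL and -3.87 in PT-like cells. These differences between classes were not tested, and the macrophage class was made up differently in the libraries, as given above.

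Plin2 also stood above the control level outside the kept cells. Free RNA had 2743 CPM in the JPI-289 library against 345. Barcodes over 50% mitochondrial UMIs, left out of every class, had 4411 (4153 to 4680.3) Plin2 UMIs per 1000000 nuclear-genome UMIs in 394 JPI-289 barcodes and 468 (399.7 to 545) in 540 control barcodes.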

How the results depend on the processing

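Of 93 recomputed summary values (medians and counts of members), 92 met the rule for staying the same (for a median, lying within its interval over the members). Those intervals were wide, -1.41 to 2.74 in PT-like and -1.71 to 1.61 in EC-like cells. A median could thus change sign and still meet the rule, so this count says little about stability. Both medians changed sign once, the PT-like one from 0.37 to -0.07 with clusters 0, 9 and 12 alone and the EC-like one from -0.87 to 0.21 with a gene minimum of 100 UMIs. The value that moved was the count of members at least 2-fold lower in EC-like cells, which was 1 with a gene minimum of 100 UMIs, where 5 members were left, and 4 as reported. Without the 5% highest doublet scores it was 6. No share over all genes was computed for either setting. Of 305 values of single members, 276 stayed within their counting intervals. The gene minimum does not alter a member's ratio, so values from its 2 settings could not move and add nothing to this count. One choice, made after seeing the data, changed most: with clusters 0, 9 and 12 alone (27 control cells), the PT-like log2 ratio of Hilpda was -0.71, of Lpl 1.73, of Fabp4 -1.45, of Plin3 0.01, of Plin2 2.75, of Pnpla2 1.07, of Dgat2 -0.71, of Cd36 -0.15 and of Fabp3 -1.98. Apart from Plin2, these ratios rest on few control UMIs, and they have no interval. With clusters 0, 9 and 12 left out, 11 JPI-289 cells remained, so no value was given. Over all alternatives Plin2 in PT-like cells ran from 2.75 to 3.77, Pnpla2 in EC-like cells from 1.51 to 1.96 and Cd36 in EC-like cells from -1.62 to -1.10. With equal weight of cells, Plin3 in EC-like cells was -0.45 and Hilpda -0.11. Leaving out the 5% highest doublet scores, the nuclear-RNA PT-like clusters or the mostly control EC-like cluster was also chosen after seeing the data. No paired analysis was possible because there was 1 library per condition, and no replicate could be left out. Depth limits members with few UMIs, such as Dgat1 and Dgat2 in EC-like cells and Lpl in neutrophils (6 and 8 UMIs).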
